A study of Homo sapiens with 120 samples.

Results

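The collagen chain genes encode the alpha chains from which collagens are built. They were taken as every row of the gene table whose symbol is COL, a number, the letter A and a number, and whose estimated counts summed to at least 100 over the 120 libraries. The rule found 44 genes among 57665, and 0 rows that matched by name fell below the total. The totals of the members nearest to the limit were 268 for COL25A1 and 292 for COL9A1, nothing stood just outside it, and the largest total was 6461041 for COL1A1. The libraries came from U2OS, an osteosarcoma cell line of human origin, and formed 40 groups of 3 wells. Parental U2OS cells carry no added construct. The Dmr-PERK line stably expresses the eIF2α kinase domain of mouse PERK joined to a DmrB domain, which pairs when the ligand AP20187, called dimerizer, is added. The sources used here do not say if that line is 1 clone. Both lines are labelled WT. Wells were left untreated (0, 4, 8, 16 and 24 h) or were given dimerizer at 0.2 nM, thapsigargin at 100 nM or arsenite at 0.05 mM for 2, 4, 8, 16 or 24 h. Thapsigargin blocks the calcium pump of the endoplasmic reticulum and arsenite causes oxidative stress. The study asked how a response started by eIF2α phosphorylation alone compares with the responses to these broader agents. Nothing beyond separate wells is stated about the replicates, so p-values measure the spread between wells.

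Collagens are secreted proteins of the extracellular matrix in which chains wind around each other in a triple helix. Fibrillar chains form the ropes of bone, skin and cartilage, collagen IV forms the network of basement membranes, collagen VI forms beaded filaments, and the fibril-associated chains (FACIT) sit on the surface of fibrils. Chains are folded, hydroxylated and assembled in the endoplasmic reticulum, the compartment whose load PERK senses. PERK phosphorylates eIF2α, which lowers protein synthesis while the transcription factor ATF4 is made. Collagen I is the main product of osteoblasts, and its usual trimer holds COL1A1 and COL1A2 chains. By structure, the members were 11 fibrillar chains, 6 basement membrane network chains, 3 short-chain network chains, 6 beaded filament and VWA-domain chains, 1 anchoring fibril chain (COL7A1), 10 FACIT chains, 4 transmembrane chains, 2 multiplexins and 1 EMI-domain chain (COL26A1).

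Library totals ran from 1.29e+07 to 5.65e+07 counts with a median of 2.23e+07, and replicate wells correlated at 0.986 to 0.999. A pair of arsenite wells stood apart from their replicates, the parental 24 h replicate 3 and the Dmr-PERK 4 h replicate 3. EIF2AK3, the gene of PERK, checked the line labels, and its untreated level was 788 to 1038 CPM (counts scaled to library size by TMM) in 15 Dmr-PERK wells and 24.4 to 52.5 CPM in 15 parental wells. Reads of the construct and of the cells' own gene cannot be told apart in the Dmr-PERK level. DDIT3, which encodes the stress factor CHOP, stood at 73.1 to 92.2 CPM in dimerizer-treated Dmr-PERK wells at 4 to 24 h against 7.41 to 11.6 CPM in untreated ones. Of the osteoblast markers, RUNX2 (median 30.5 CPM in untreated Dmr-PERK cells, 50.2 CPM in parental cells) and ALPL (10.2 CPM in both) were present, while SP7, IBSP and DMP1 had medians of 0 to 0.0433 CPM. SPP1 had a higher median in Dmr-PERK cells (5.57 CPM) than in parental cells (1.81 CPM), and BGLAP was low (0.633 and 0.457 CPM). Of 5 mesenchymal markers, VIM had a higher median in Dmr-PERK cells (2883 CPM) than in parental cells (2369 CPM). THY1 (49.2 and 154 CPM), CDH2 (93.0 and 115 CPM), PDGFRB (61.5 and 77.5 CPM) and S100A4 (10.3 and 13.6 CPM) had lower ones. Among the epithelial markers KRT8 and KRT18 were at 119 to 752 CPM, EPCAM and CDH1 had medians of 2.52 to 5.02 CPM, and ESRP1 and KRT19 were at or near 0. Of the blood markers, PTPRC had medians of 1.05 CPM in parental and 0.729 CPM in Dmr-PERK cells, CD14 was near 0, and CD3E and LYZ had medians of 0.

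Collagen IV genes lie in pairs that start beside each other and are read in opposite directions, and members of these pairs changed by unequal amounts. The stretches before their start sites are therefore shown, except that before COL4A5. The stretch of COL6A2, which over 4 to 24 h of thapsigargin moved against its partner chains, is added. RefSeq start windows (build GRCh38.p14, 250 bases before to 50 after a start) were held for 32 of the 44 members in 44 windows, and COL1A1, COL1A2, COL3A1, COL5A2 and COL6A1 had none. The start sites of COL4A1 and COL4A2 lie 127 bases apart, those of COL4A3 and COL4A4 419 bases apart, and those of COL4A5 and the nearer start of COL4A6 380 bases apart. The first line is the whole stretch between COL4A1 and COL4A2 (chr13:110307158-110307283), on the strand of COL4A2. The others are the 250 bases before the start of COL4A3 (chr2:227164374-227164623, plus strand), COL4A4 (chr2:227164206-227164455, minus strand), COL4A6 (chrX:108439459-108439708, minus strand) and COL6A2 (chr21:46097862-46098111, plus strand). Capitals mark matches to CCAAT or TATAAA on either strand.
COL4A1 to COL4A2: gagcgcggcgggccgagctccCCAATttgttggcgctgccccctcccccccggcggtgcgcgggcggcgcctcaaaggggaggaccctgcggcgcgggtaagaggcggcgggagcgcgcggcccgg
COL4A3 upstream: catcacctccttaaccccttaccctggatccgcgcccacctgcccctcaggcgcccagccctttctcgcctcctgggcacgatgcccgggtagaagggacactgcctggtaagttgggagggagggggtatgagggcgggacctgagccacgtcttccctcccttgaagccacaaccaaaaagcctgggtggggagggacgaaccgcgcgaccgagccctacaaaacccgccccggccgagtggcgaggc
COL4A4 upstream: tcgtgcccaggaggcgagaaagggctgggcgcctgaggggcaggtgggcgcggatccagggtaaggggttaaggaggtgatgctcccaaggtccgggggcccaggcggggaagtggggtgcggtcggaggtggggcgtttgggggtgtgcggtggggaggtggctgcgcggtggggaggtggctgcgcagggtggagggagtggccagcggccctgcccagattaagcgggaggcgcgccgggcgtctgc
COL4A6 upstream: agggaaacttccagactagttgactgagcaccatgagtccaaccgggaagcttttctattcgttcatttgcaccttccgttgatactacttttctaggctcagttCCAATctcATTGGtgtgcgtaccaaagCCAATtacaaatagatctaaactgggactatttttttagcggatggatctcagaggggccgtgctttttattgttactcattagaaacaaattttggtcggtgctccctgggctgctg
COL6A2 upstream: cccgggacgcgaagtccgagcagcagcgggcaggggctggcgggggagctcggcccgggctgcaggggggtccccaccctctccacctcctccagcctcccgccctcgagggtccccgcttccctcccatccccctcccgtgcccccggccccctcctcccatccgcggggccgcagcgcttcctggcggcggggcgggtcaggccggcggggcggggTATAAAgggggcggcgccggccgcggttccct
CCAAT, read on both strands, was in 14 of the 44 member windows, and 34.61% of the 35116 windows of all genes held it. TATAAA was in 8 member windows (11.53% of all windows), TGATGNAA, a form of the ATF4 and CHOP composite site, in 1 (3.62%), and TGACGTGG, a form of the site of ER stress factors, in 0 (0.73%). These searches describe letters in the windows and bear on no factor's binding. The median GC content was 63.6% over the members' windows and 58.7% over all windows.

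In untreated cells COL1A1 was the highest chain by a wide margin and COL1A2 ranked 33 of 44. Levels between genes are given in TPM, which accounts for transcript length. COL1A1 stood at 1107 ± 58.8 TPM (SD, n = 15 wells over 5 times) in parental cells and at 338 ± 32.1 TPM in Dmr-PERK cells. COL1A2, its usual partner, stood at 0.364 TPM in parental and 0.26 TPM in Dmr-PERK cells (the lowest value of the TPM table is 0.063122). COL4A2 of the basement membrane network came next by its mean, with 302 ± 36.8 TPM in parental and 135 ± 11.8 TPM in Dmr-PERK cells. COL16A1, a FACIT chain, followed with 183 ± 19.7 TPM and 129 ± 10.3 TPM, and in Dmr-PERK cells its range overlapped that of COL4A2. In parental cells COL4A1 (134 TPM), COL6A1 (117 TPM), COL6A2 (112 TPM), COL12A1 (109 TPM), COL5A1 (109 TPM) and COL6A3 (86.5 TPM) followed, with ranges that overlapped from each gene to the next. In Dmr-PERK cells COL12A1 (87.6 TPM), COL6A2 (86.9 TPM) and COL5A1 (82.3 TPM) overlapped each other and lay above the range of COL6A1 (47.3 TPM). The lowest chain was COL6A5, at the lowest value of the table in every untreated well. COL10A1, the chain of hypertrophic cartilage, and COL25A1, a transmembrane chain of neurons, were the 2 members that did not pass the filter on low counts and were not tested. They did not exceed 0.453 CPM (COL10A1) and 0.239 CPM (COL25A1) in any untreated well.

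**Figure D1:**
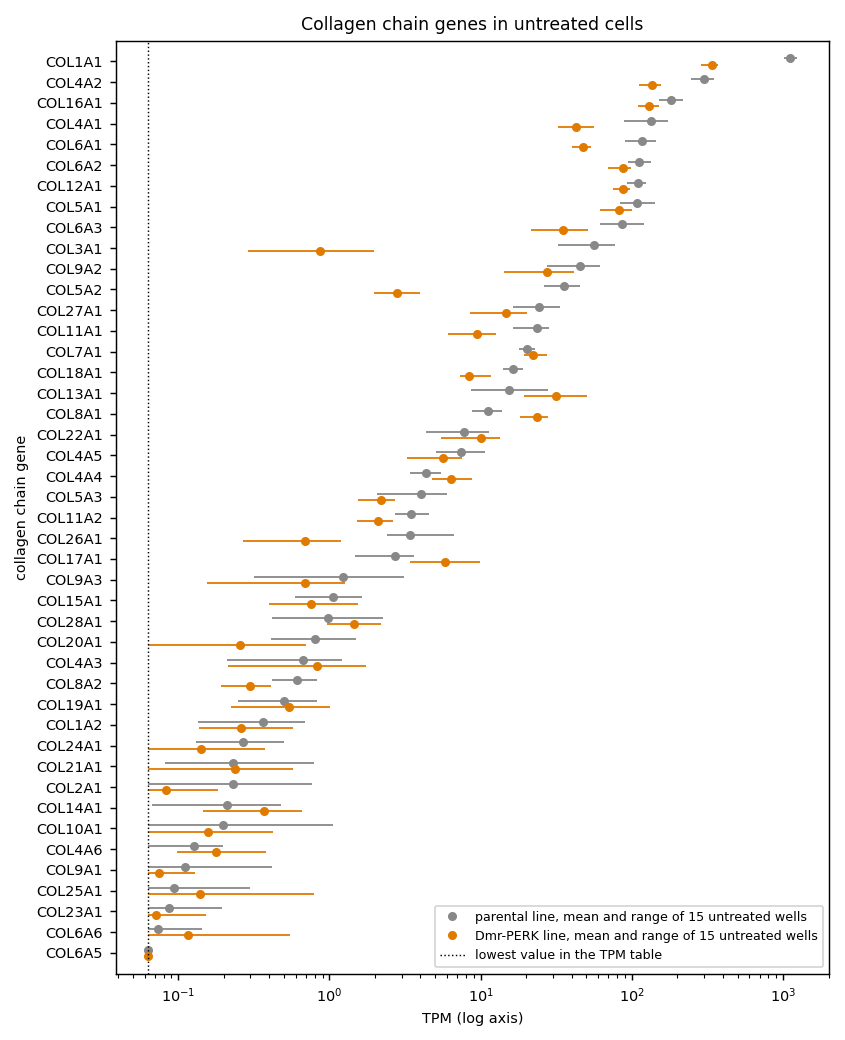
Levels of the 44 collagen chain genes in untreated cells, in TPM on a log axis, as the mean (point) and range (line) of 15 wells per line. COL1A1 leads in both lines, and COL3A1 (56.4 TPM in parental, 0.872 TPM in Dmr-PERK cells) and COL5A2 (35.4 and 2.8 TPM) lie farthest apart between the lines among the abundant chains.

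The Dmr-PERK line held less collagen RNA than parental cells before any treatment. All 11 fibrillar chains were lower in it, with a median log2 difference of -1.07, whereas the basement membrane network chains split into 3 lower and 3 higher. COL3A1, a fibrillar chain that forms fibrils with collagen I, stood at 110 to 258 CPM in the 15 untreated parental wells and at 1.01 to 6.49 CPM in the Dmr-PERK wells, a log2 difference of -6.26 ± 0.05 (± approximate SE). COL5A2, its neighbour on chromosome 2 with 19149 bases between the genes, ran from 117 to 198 CPM in parental and from 9.2 to 15.9 CPM in Dmr-PERK wells (-3.72 ± 0.03). The ranges of the lines did not overlap for either gene. COL26A1 (-2.56 ± 0.08), COL20A1 (-1.98 ± 0.17), COL1A1 (-1.93 ± 0.02), COL4A1 (-1.59 ± 0.04), COL6A3 (-1.28 ± 0.03), COL11A1 (-1.27 ± 0.03) and COL6A1 (-1.17 ± 0.03) were also lower. Higher in the Dmr-PERK line were COL13A1, a transmembrane chain found at cell adhesions (1.13 ± 0.03), COL8A1, a short-chain network chain (0.89 ± 0.03), COL17A1, a transmembrane chain of hemidesmosomes (0.80 ± 0.04), COL22A1 (0.70 ± 0.06), COL4A4 (0.54 ± 0.04) and COL7A1, the chain of anchoring fibrils (0.34 ± 0.02). In all, 27 of 42 tested members were lower and 10 higher (edgeR's quasi-likelihood test, Benjamini-Hochberg adjusted over 26998 genes), against 32.2% of all genes lower and 30.3% higher. The members' median was -0.65 and that of all genes -0.03. The construct and any other difference between the cultures cannot be told apart here, and in bulk RNA fewer cells with a transcript and less of it per cell cannot be told apart either.

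Collagen levels also moved with time in untreated wells. 33 of 42 members changed over 0 to 24 h in parental cells (F-test, 55.4% of all genes) and 26 of 42 in Dmr-PERK cells (53.4%). COL3A1 in untreated parental wells was at 252, 258 and 252 CPM at 0 h and at 111, 110 and 114 CPM at 16 h. COL6A3, the large chain of collagen VI, went from 339, 393 and 380 CPM at 0 h to 644, 655 and 658 CPM at 8 h and 388, 368 and 390 CPM at 24 h in parental cells. Each treatment was for this reason set against untreated wells of its own time, except at 2 h, for which the untreated wells were those of 0 h. COL6A3 in dimerizer-treated parental wells at 2 h was at 280, 269 and 253 CPM, below the untreated wells at 0 h, and the time and the agent cannot be told apart in such a 2 h value.

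The collagen share of all counts at 24 h was lower with each agent except dimerizer in parental cells. In Dmr-PERK cells at 24 h the 44 genes took 0.344% to 0.378% of the counts in the 3 untreated wells. Dimerizer wells were at 0.235% to 0.236%, arsenite wells at 0.204% to 0.213% and thapsigargin wells at 0.181% to 0.185%. In parental cells at 24 h the shares were 0.832% to 0.877% untreated. They were 0.832% to 0.866% under dimerizer, 0.399% to 0.402% under thapsigargin and 0.329% to 0.352% under arsenite. The ranges of untreated and treated wells overlapped for dimerizer in parental cells and for no other pair. COL1A1 made up 28.4% to 30.1% of the collagen counts in untreated Dmr-PERK wells at 24 h. That part was 16.2% to 17.6% under dimerizer, 12.0% to 12.4% under thapsigargin and 35.3% to 36.5% under arsenite. A share of counts weights the abundant chains, and these values carry no test.

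**Figure D2:**
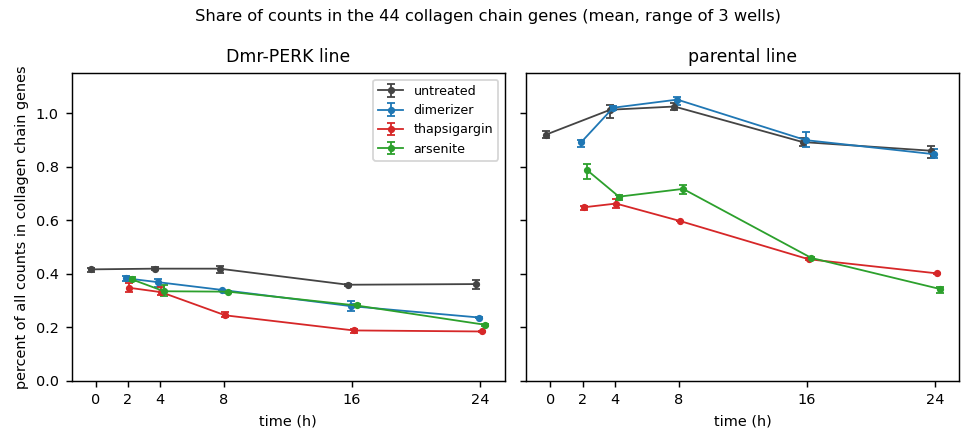
Percent of all counts in the 44 collagen chain genes over time, as the mean and range of 3 wells, for both lines and all treatments. Parental cells under dimerizer follow the untreated wells, and the thapsigargin and arsenite wells fall to 0.329% to 0.402% by 24 h.

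Dimerizer in the Dmr-PERK line lowered most collagen chains. All 6 basement membrane network chains and both tested short-chain network chains fell, as did 7 of 11 fibrillar chains, and 4 members rose. COL1A1 was at 962, 1063 and 920 CPM in untreated wells at 24 h and at 371, 404 and 400 CPM with dimerizer. The treated wells were all below the untreated ones, and the mean log2 fold change over 4 to 24 h was -0.75 ± 0.03 (adjusted p = 1.36e-44 by edgeR). COL11A1, a minor fibrillar chain of cartilage that sets fibril width, was at 31.6, 33.6 and 28.7 CPM untreated and at 6.11, 6.64 and 7.66 CPM at 24 h, with a mean of -1.20 ± 0.04. COL8A1, a network chain of blood vessels and cornea, was at 41.1, 39.7 and 41.2 CPM untreated and at 11.2, 12.4 and 11.2 CPM (-1.09 ± 0.04). The groups did not overlap for either gene.

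Other members that fell by about as much were COL26A1 (-1.58 ± 0.23), COL9A2, a FACIT chain of cartilage (-1.09 ± 0.05), COL18A1, the multiplexin from which endostatin is cut (-0.94 ± 0.04), COL4A4 (-0.90 ± 0.04) and COL6A1 (-0.87 ± 0.03). The 4 members that rose were COL21A1 (0.75 ± 0.24), COL27A1 (0.27 ± 0.03), COL6A2 (0.23 ± 0.02) and COL17A1 (0.12 ± 0.05), the last of which reversed in limma fits to TPM. COL12A1, a FACIT chain that bridges fibrils, was close to its untreated level (-0.06 ± 0.02), and COL13A1 (-0.03 ± 0.03), COL6A3 (-0.04 ± 0.04) and COL5A2 (0.08 ± 0.05) did not pass the test. In all, 25 of 42 members were lower and 4 higher, against 27.7% of all genes lower and 27.5% higher, with a members' median of -0.42 (all genes -0.03). Of the 24 members with a mean of at least 10 CPM over all libraries, 18 were lower and 3 higher. Of all genes at that level, 35.5% were lower and 48.3% higher.

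The decrease built up with time. At 2 h 9 of 42 members were lower (9.13% of all genes) with a members' median of 0.08, and at 24 h 24 were lower (23.1%) with a median of -0.80. The effect changed between 4 and 24 h for 26 of 42 members (F-test, 42.1% of all genes), with COL11A1, COL18A1 and COL4A4 giving the smallest p. For COL18A1 the log2 fold change went from -0.26 at 4 h to -1.51 at 24 h. COL3A1 with dimerizer at 2 h was at 10.9, 12.8 and 14.1 CPM, above the 4.46, 6.49 and 6.34 CPM of untreated wells at 0 h. At 24 h it was at 0.291, 0.303 and 0.173 CPM against 1.57, 2.02 and 1.52 CPM untreated, with all treated wells below. The 2 h wells are set against 0 h wells, so time and agent cannot be told apart there, and COL3A1 was also higher at 2 h with thapsigargin (16.6 to 17.5 CPM) and arsenite (9.41 to 10.3 CPM). At 4 h the dimerizer change was 0.36 and did not pass the test.

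In parental cells, which lack the construct, dimerizer changed 0 of 42 members over 4 to 24 h by edgeR's quasi-likelihood test, 2 reached an unadjusted p under 0.05, and DESeq2 called 0. Of all genes 0.582% were called. At single times, 7.52% of all genes were called at 4 h and 0 at 8, 16 and 24 h, with 0 members at each of these times. At 2 h, set against 0 h, 1 member was called lower (0.133% of all genes). The cause of the 4 h difference was not tested. COL1A1 was at 3977, 3840 and 3943 CPM untreated and 3828, 3875 and 3972 CPM with dimerizer at 24 h, which overlap. The dimerizer effect in these cells changed with time for 2 members, COL13A1 and COL7A1 (F-test, 3.76% of all genes). The difference between the lines in the effect of dimerizer was itself called for 26 members, 23 with the more negative effect in Dmr-PERK cells and 3 with the more positive one (23.2% and 23.7% of all genes).

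**Figure D3:**
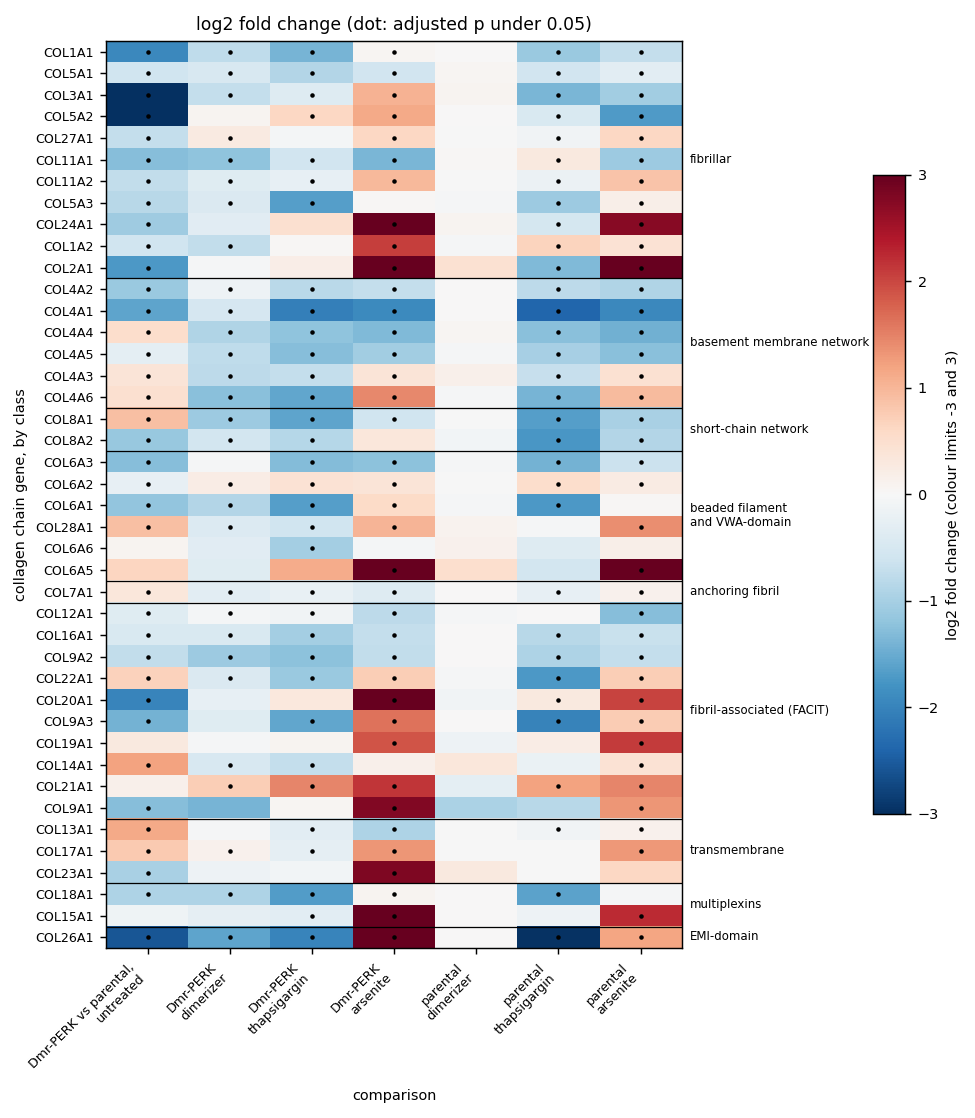
Log2 fold changes of the 42 tested members by structural class, for the untreated line difference and for each treatment against untreated wells of its line over 4 to 24 h, with blue for lower, red for higher and a dot at an adjusted p under 0.05. The columns of dimerizer and thapsigargin in Dmr-PERK cells and of thapsigargin in parental cells are mostly blue, the arsenite columns hold both colours, and the column of dimerizer in parental cells has 0 dots.

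Thapsigargin lowered collagen chains in both lines, and the falls in COL1A1, COL4A1 and COL6A1 were larger than with dimerizer. All 6 basement membrane network chains and both short-chain network chains fell in both lines. COL1A1 in Dmr-PERK cells at 24 h was at 202, 206 and 190 CPM, below every untreated well of that time, and in parental cells at 1284, 1272 and 1231 CPM. Its mean log2 fold change was -1.39 ± 0.03 in Dmr-PERK cells and -1.11 ± 0.03 in the parental line. COL18A1 went from 48.1 CPM (mean of 3 wells, untreated) to 9.47, 9.76 and 8.73 CPM at 24 h in parental cells, and its means were -1.69 ± 0.04 in Dmr-PERK and -1.60 ± 0.03 in parental cells. SLC19A1, a protein-coding gene on the other strand, overlaps 20149 bases of COL18A1, which makes its counts uncertain if strand was not used. COL8A1 (-1.59 ± 0.04 in Dmr-PERK, -1.64 ± 0.05 in parental cells), COL5A3, a minor fibrillar chain (-1.65 ± 0.06 and -1.10 ± 0.04), COL16A1 (-1.02 ± 0.03 and -0.82 ± 0.03), COL9A2 (-1.23 ± 0.05 and -0.93 ± 0.04) and COL26A1 (-1.98 ± 0.26 and -2.95 ± 0.11) fell as well.

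Of 42 members, 30 were lower and 3 higher in Dmr-PERK cells, against 32.2% and 30.9% of all genes, with a members' median of -0.66 (all genes 0.00). In parental cells 27 were lower and 5 higher, against 35% and 30.1% of all genes, with a median of -0.625 (all genes -0.06). Of the 24 members with a mean of at least 10 CPM over all libraries, 21 were lower in Dmr-PERK and 20 in parental cells. Of all genes at that level, 42.9% and 42.4% were lower. COL6A2 and COL21A1 were higher in both. COL5A1, the partner of COL5A2 in collagen V, fell by 0.87 ± 0.03 and 0.56 ± 0.03 on the log2 scale. COL3A1 fell by 1.37 ± 0.03 in parental cells and was -0.39 ± 0.17 in Dmr-PERK cells, a call that limma fits to TPM turned to 0.2 or 0. COL1A2 rose in parental cells (0.67 ± 0.12) and was 0.04 ± 0.17, not called, in Dmr-PERK cells. COL13A1 was -0.33 ± 0.03 in Dmr-PERK and -0.11 ± 0.04 in parental cells, the latter turning to 0.01 or 0.02 in limma fits to TPM. COL12A1 moved little, with -0.11 ± 0.02 in Dmr-PERK cells and 0.02 ± 0.02, not called, in parental cells, and COL7A1 fell by 0.21 and 0.25 on the log2 scale.

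The thapsigargin effect was also larger late than early. In Dmr-PERK cells 14 of 42 members were lower at 2 h (15% of all genes), 30 at 16 h (26.2%) and 24 at 24 h (27.5%). The members' medians at these times were -0.055, -1.15 and -1.03, so the effect did not deepen further from 16 to 24 h by these measures. Higher were 3 members at 16 h (25.3% of all genes) and 7 at 24 h (27.5%). The effect changed between 4 and 24 h for 30 members in Dmr-PERK cells (52.2% of all genes) and 32 in parental cells (49.9%). COL6A1 went from -0.54 at 4 h to -2.74 at 24 h in Dmr-PERK cells and from -0.87 to -2.66 in parental cells.

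The lines differed in 2 fibrillar chains that thapsigargin moved in opposite directions. COL11A1 at 24 h was at 119 to 125 CPM in thapsigargin-treated parental wells and at 67.5 to 80.2 CPM in untreated ones, and at 12.4 to 13.3 CPM against 28.7 to 33.6 CPM in Dmr-PERK cells. It rose by 0.29 ± 0.03 in parental cells and fell by 0.57 ± 0.03 in Dmr-PERK cells over 4 to 24 h (difference -0.85 ± 0.04, adjusted p = 2.38e-32 by edgeR). COL5A2 rose in Dmr-PERK cells, to 29.8, 28.1 and 28.0 CPM at 24 h from 13.9, 12.5 and 13.1 CPM, and fell in parental cells, to 70.0, 76.6 and 71.3 CPM from 161, 152 and 152 CPM (difference 1.06 ± 0.06). The wells of each group did not overlap with their untreated wells. The line difference of the thapsigargin effect was called for 19 members, 13 more negative and 6 more positive in Dmr-PERK cells (14.4% and 11.3% of all genes).

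Collagen IV, the network collagen of basement membranes, is made of COL4A1 and COL4A2 in most tissues, with the other 4 chains in kidney, lung and some further sites. COL4A1 and COL4A2, whose start sites flank the first stretch printed, fell together under thapsigargin, but COL4A1 fell by far more. COL4A1 was at 146, 147 and 135 CPM in untreated Dmr-PERK wells at 24 h and at 22.1, 22.1 and 19.3 CPM with thapsigargin. COL4A2 was at 485, 481 and 448 CPM and at 225, 223 and 198 CPM. The mean log2 fold changes were -2.06 ± 0.05 for COL4A1 and -0.81 ± 0.02 for COL4A2 in Dmr-PERK cells, and -2.37 ± 0.05 and -0.79 ± 0.02 in parental cells. Arsenite gave the same order, with -1.92 ± 0.05 and -0.71 ± 0.02 in Dmr-PERK cells and -1.94 ± 0.05 and -0.89 ± 0.02 in parental cells. Dimerizer gave smaller falls of -0.50 ± 0.05 and -0.16 ± 0.02. The log2 ratio of COL4A1 to COL4A2 (in CPM, with 0.1 added to both) had a mean of -1.56 in untreated Dmr-PERK wells at 4 to 24 h and of -2.81 with thapsigargin, and the ranges of 12 wells each did not overlap. These ratios were chosen after the values were seen and carry no test. In the annotation the bodies of the genes overlap by 1422 bases on opposite strands, and the sources used here do not say if reads were assigned by strand. Of the 44 members, 20 overlap an annotated gene on the opposite strand.

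COL4A3 and COL4A4, the pair on chromosome 2, fell together under thapsigargin (-0.72 ± 0.15 and -1.21 ± 0.05 in Dmr-PERK cells) and under arsenite had average changes of opposite sign over 4 to 24 h. COL4A4 in Dmr-PERK cells at 24 h was at 39.0, 46.7 and 34.1 CPM untreated and at 6.63, 6.40 and 6.59 CPM with arsenite, with a mean of -1.32 ± 0.05 and no overlap. COL4A3 was at 1.72, 2.62 and 1.61 CPM and at 1.59, 1.29 and 1.14 CPM at that time, so both genes were lower then (COL4A3 by edgeR -0.60 ± 0.24 at 24 h), whereas COL4A3 was higher at 4 h (0.65 ± 0.24) and its mean over 4 to 24 h was 0.39 ± 0.12. In parental cells arsenite gave 0.46 ± 0.13 for COL4A3 and -1.43 ± 0.05 for COL4A4. For COL4A5 and COL4A6, on the X chromosome, arsenite gave averages of -1.04 ± 0.04 for COL4A5 and 1.43 ± 0.15 for COL4A6 in Dmr-PERK cells, and -1.25 ± 0.04 and 0.94 ± 0.18 in parental cells. COL4A6 was low throughout, at 0.393 to 0.815 CPM in untreated Dmr-PERK wells at 24 h and 1.04 to 1.54 CPM with arsenite. An antisense gene lies along 93741 bases of COL4A3, so the counts of COL4A3 are uncertain if strand was not used.

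Collagen VI is assembled inside the cell from COL6A1, COL6A2 and COL6A3 chains, and the 3 genes did not move together. Under thapsigargin COL6A1 and COL6A3 fell while COL6A2 rose. In parental cells at 24 h COL6A1 was at 238, 237 and 234 CPM untreated and at 38.2, 39.5 and 34.3 CPM with thapsigargin. COL6A3 was at 388, 368 and 390 CPM and at 70.6, 64.0 and 67.6 CPM. COL6A2 was at 189, 189 and 189 CPM and at 393, 396 and 392 CPM. The treated wells of COL6A1 and COL6A3 lay below all untreated wells of that time and those of COL6A2 above them. Over 4 to 24 h the changes were -1.73 ± 0.03 for COL6A1, -1.42 ± 0.04 for COL6A3 and 0.52 ± 0.02 for COL6A2 in parental cells, and -1.66 ± 0.03, -1.30 ± 0.04 and 0.42 ± 0.02 in Dmr-PERK cells. COL6A2 was first slightly lower, with a 4 h change of -0.23 in the Dmr-PERK and -0.20 in the parental line, and then higher by 1.04 and 1.06 at 24 h.

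Dimerizer alone separated the collagen VI chains in Dmr-PERK cells. COL6A1 at 24 h was at 111, 120 and 104 CPM untreated and 39.3, 40.4 and 37.1 CPM treated, and COL6A2 at 157, 162 and 145 CPM untreated and 239, 237 and 235 CPM treated. Neither pair of groups overlapped, and they moved in opposite directions. Means were -0.87 ± 0.03 and 0.23 ± 0.02, and COL6A3 did not pass the test (-0.04 ± 0.04). COL6A1 and COL6A2 lie on chromosome 21 on the same strand with 93046 bases between them, and COL6A3 lies on chromosome 2. Arsenite gave a further pattern in Dmr-PERK cells, in which COL6A1 (0.58 ± 0.03) and COL6A2 (0.38 ± 0.02) rose and COL6A3 (-1.24 ± 0.04) fell. The remaining collagen VI chains were low. Against untreated wells, COL6A6 was called in 1 comparison, thapsigargin in Dmr-PERK cells (-1.02 ± 0.32). COL6A5 was at most 0.207 CPM in untreated wells and reached 1.36 CPM in Dmr-PERK and 1.72 CPM in parental wells with arsenite.

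**Figure D4:**
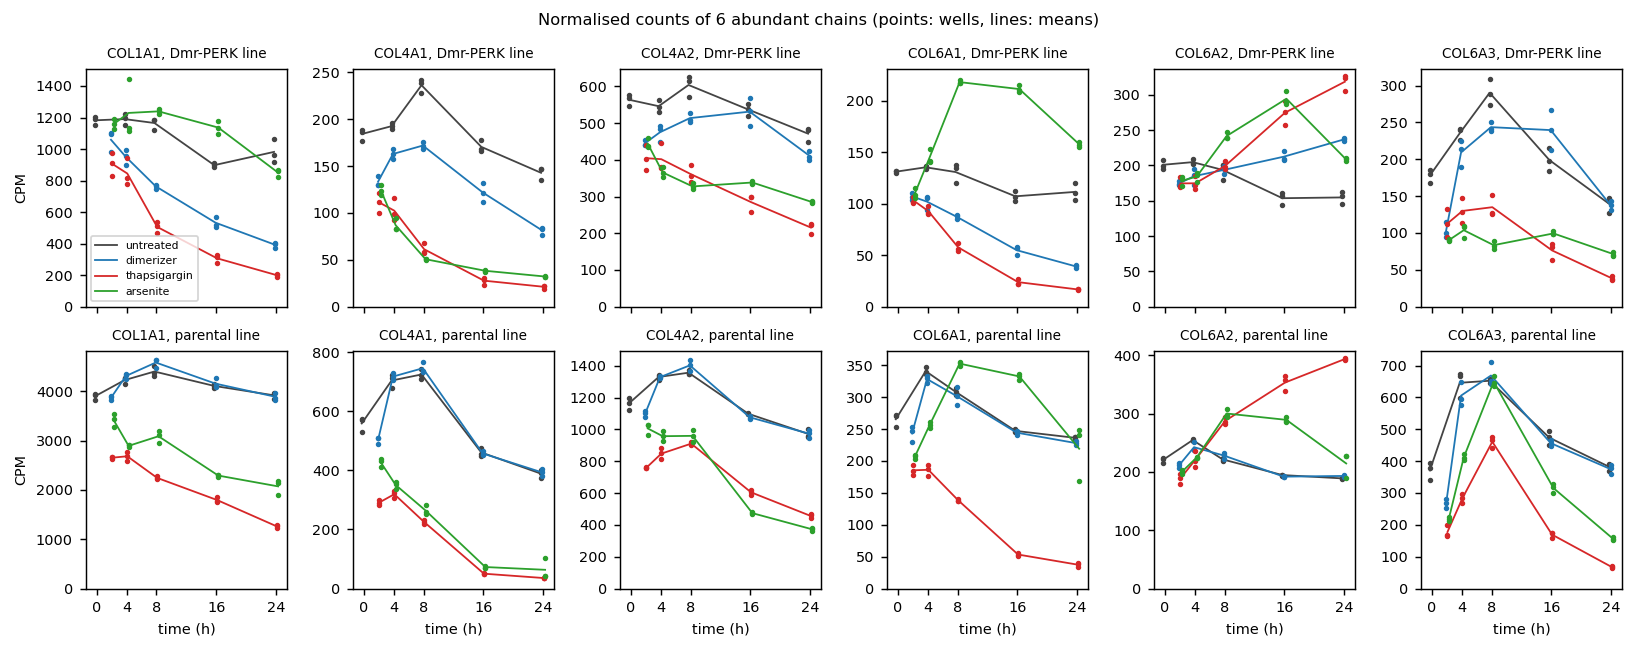
Normalised counts (CPM) of COL1A1, COL4A1, COL4A2, COL6A1, COL6A2 and COL6A3 over time in both lines, with a point per well and lines through the means of 3 wells. At 24 h with thapsigargin COL6A2 is at 392 to 396 CPM in parental wells, while COL6A1 is at 34.3 to 39.5 CPM.

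Arsenite gave the most mixed picture, with large rises of chains that were hardly present before and both falls and rises among abundant ones. The abundant members fell no more often than all genes of their level. In Dmr-PERK cells 25 of 42 members were higher and 13 lower, against 44.4% and 39.2% of all genes, with a members' median of 0.48 (all genes 0.12). In parental cells 23 were higher and 15 lower, against 42.7% and 39.4%, with a median of 0.215 (all genes 0.09). The median of all genes under arsenite depended on the scaling, with 0.22 in Dmr-PERK cells under RLE size factors and -0.075 with library totals only, and arsenite changes are to be read relative to it. At 24 h alone 22 members were higher in Dmr-PERK cells (43.3% of all genes) and 19 in the parental line (42.7%). These counts and medians include 4 members that reached the filter's level only through arsenite wells, which favours higher values for those 4. The effect changed between 4 and 24 h for 36 members in Dmr-PERK cells (71.2% of all genes) and 37 in parental cells (73.1%).

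The direction under arsenite went with the level of the gene. Of the 24 members with a mean of at least 10 CPM over all libraries, 13 were lower in Dmr-PERK cells and 14 in the parental line, against 61% and 60.3% of all genes at that level. Higher were 10 and 8 of them, against 32.6% and 33.9%. Of the 8 members tested with a mean under 1 CPM, 6 were higher in each line, against 55.2% and 50.1% of all genes at that level. Of the 10 members at 1 to 10 CPM, 9 were higher in each line, against 46.8% and 45.6% of all genes at that level. Their medians were 1.98 in Dmr-PERK and 1.28 in parental cells, against 0.11 and 0.085 for all genes there. A split by level was thus present in genes at large. At 1 to 10 CPM, members were higher more often than all genes of that level. The medians of the 8 low members were 2.46 in Dmr-PERK and 1.13 in parental cells, against 0.96 and 0.73 for all genes at that level. Such a level is a mean over libraries that include the arsenite wells, and 4 of the tested members reached the filter's level of 0.448 CPM in 3 libraries only through arsenite wells (COL23A1, COL2A1, COL6A5 and COL9A1), so these had to be higher there.

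Large rises were in chains of low level. COL2A1, the main fibrillar chain of cartilage, passed the filter only through arsenite wells, so its rise is a description of its level. It was at 0.0358, 0.214 and 0.0446 CPM in untreated Dmr-PERK wells at 24 h and at 5.52, 6.77 and 7.43 CPM with arsenite. In parental cells it was at 0.286, 0.125 and 0.429 CPM and at 4.98, 6.06 and 5.63 CPM. All treated wells were above all untreated ones, and the mean log2 fold changes were 5.85 ± 0.31 and 3.72 ± 0.23. Their size depends on the count added by the fit, since untreated Dmr-PERK wells held few or no reads of the gene. COL15A1, a multiplexin of basement membrane zones, was at 1.32, 1.07 and 1.21 CPM untreated and at 23.7, 23.6 and 26.2 CPM with arsenite at 24 h in Dmr-PERK cells (3.69 ± 0.07), and rose by 2.24 ± 0.08 in parental cells. COL24A1, a fibrillar chain of developing bone, rose by 3.73 ± 0.16 and 2.74 ± 0.11, COL20A1 by 3.56 ± 0.18 and 2.04 ± 0.10, and COL19A1 by 1.88 ± 0.12 and 2.1 ± 0.13. COL17A1, which was higher in the Dmr-PERK line to begin with, rose by 1.32 ± 0.04 and 1.29 ± 0.05.

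COL26A1, a short secreted chain with an EMI domain, turned with the agent. It was at 0.966, 1.46 and 1.29 CPM untreated, 12.9, 12.3 and 14.1 CPM with arsenite, and at most 0.135 CPM with dimerizer or thapsigargin in Dmr-PERK wells at 24 h. Its means were 3.13 ± 0.10 with arsenite, -1.58 ± 0.23 with dimerizer and -1.98 ± 0.26 with thapsigargin. In parental cells they were 1.17 ± 0.05 with arsenite and -2.95 ± 0.11 with thapsigargin. COL22A1, a FACIT chain of tissue junctions, turned likewise, with 0.74 ± 0.06 under arsenite and -1.12 ± 0.07 under thapsigargin in Dmr-PERK cells.

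COL1A2 rose late with arsenite in the Dmr-PERK line. At 4 and 8 h with arsenite it was at 0.33 to 0.631 CPM, and the wells overlapped the untreated ones at 4 and at 8 h. At 16 h it was at 8.45, 7.36 and 8.15 CPM against 0.881, 0.176 and 0.477 CPM untreated, and at 24 h at 11.6, 11.2 and 11.7 CPM against 0.572, 0.472 and 0.58 CPM. Those wells were all above every untreated well, with log2 fold changes of 4.09 at 16 h and 4.40 at 24 h. In parental cells at 24 h COL1A2 was at 2.39, 2.30 and 2.45 CPM against 0.595, 0.582 and 0.815 CPM, a change of 1.86. The line difference over 4 to 24 h was 1.64 ± 0.20 (adjusted p = 3.69e-11 by edgeR). An antisense gene overlaps 1048 bases of COL1A2 in the annotation. COL1A1 was far above its partner in CPM, with 863, 821 and 867 CPM in Dmr-PERK cells with arsenite at 24 h.

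Among the abundant chains that fell with arsenite, COL11A1 changed by -1.36 ± 0.04 in Dmr-PERK and -1.08 ± 0.03 in parental cells, COL5A1 by -0.57 ± 0.03 and -0.32 ± 0.03, and COL16A1 by -0.71 ± 0.03 and -0.67 ± 0.03. COL18A1 was 0.09 ± 0.03 in Dmr-PERK cells, which turned to -0.1 with library totals only, and -0.03 ± 0.03, not called, in parental cells. Other chains moved in opposite directions in the lines. COL5A2 in Dmr-PERK cells at 16 h was at 38.9, 35.1 and 34.1 CPM with arsenite and 15.9, 14.7 and 14.4 CPM untreated, and in parental cells at 27.2, 26.7 and 28.0 CPM against 119, 117 and 122 CPM. With arsenite the Dmr-PERK wells were thus above the parental ones at that time, while untreated they were far below them. The means were 1.14 ± 0.05 and -1.70 ± 0.03, and the difference 2.85 ± 0.06 (adjusted p = 3.23e-65 by edgeR). COL3A1 gave 1.05 ± 0.11 and -1.04 ± 0.03. At 24 h the parental replicate 3 that stood apart was at 31.9 CPM of COL5A2 and 46.8 CPM of COL3A1, against 16.7 and 17.1 CPM and 29.2 and 29.3 CPM in the other wells, and both line differences were called without it.

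COL13A1 fell in Dmr-PERK cells (-0.94 ± 0.04) and was 0.13 ± 0.04 in parental cells, a rise that turned to -0.06 with library totals only. COL7A1 fell by 0.39 ± 0.03 in Dmr-PERK cells and was 0.12 ± 0.03 in parental cells, which turned to -0.07 with library totals only. COL1A1 was 0.07 ± 0.03 in Dmr-PERK cells, which turned to -0.12 with library totals only, and fell by 0.70 ± 0.03 in parental cells. At 24 h the Dmr-PERK wells of COL1A1 with arsenite were all below the untreated ones. COL7A1 was first higher and then lower: with arsenite it was at 78.1, 83.0 and 82.2 CPM at 8 h (untreated 56.7, 57.9 and 59.2) and at 19.4, 22.6 and 17.4 CPM at 24 h (untreated 63.7, 62.8 and 62.7) in Dmr-PERK cells. COL12A1, which the other agents left nearly level, fell late with arsenite, to 141, 139 and 139 CPM at 24 h from 475, 468 and 470 CPM in Dmr-PERK cells and to 81.0, 83.8 and 109 CPM from 582, 572 and 535 CPM in parental cells. The groups did not overlap. The line difference of the arsenite effect was called for 24 members, 19 more positive and 5 more negative in Dmr-PERK cells (23.5% and 18.7% of all genes). The members tested include the 4 that reached the filter's level only through arsenite wells.

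**Figure D5:**
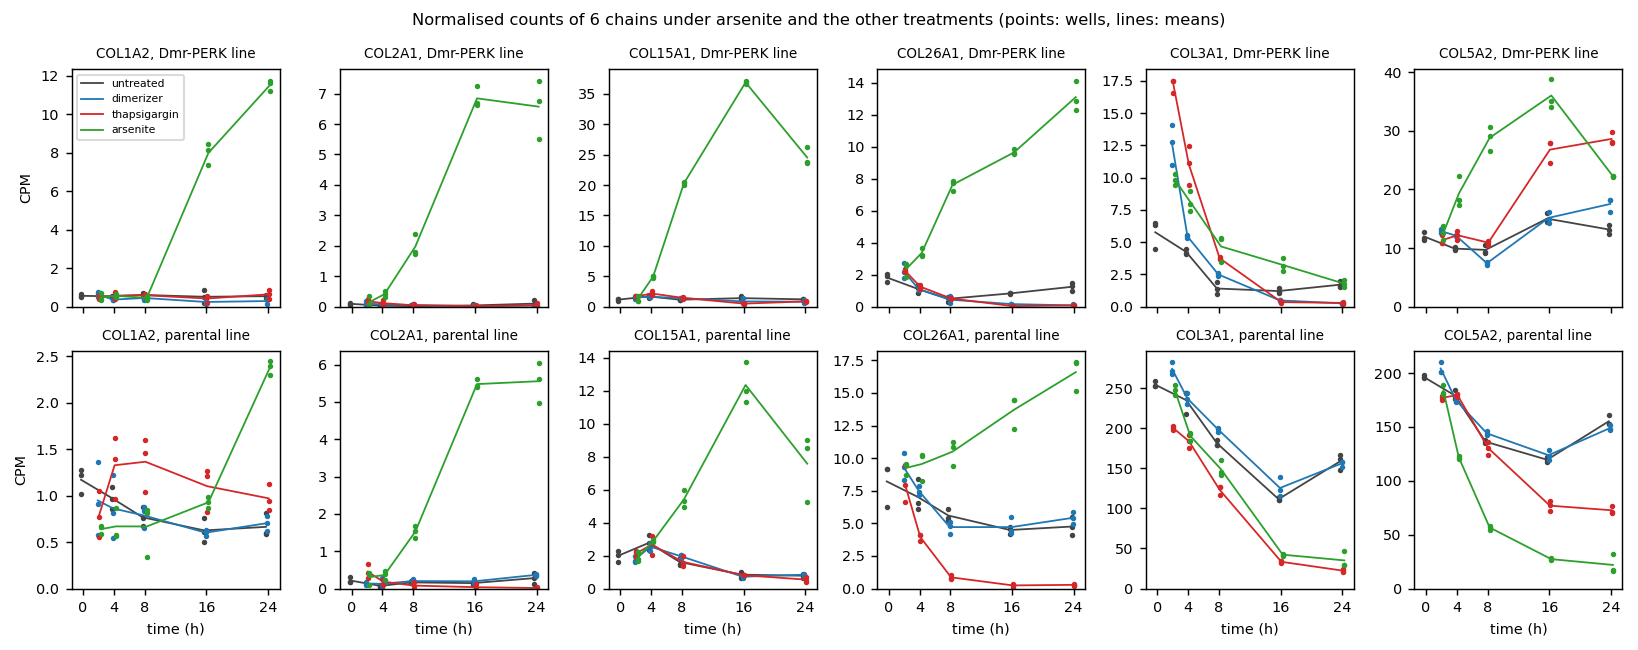
Normalised counts (CPM) of COL1A2, COL2A1, COL15A1, COL26A1, COL3A1 and COL5A2 over time in both lines, with a point per well and lines through the means of 3 wells. COL1A2 in Dmr-PERK cells with arsenite rises between 8 h and 16 h to 7.36 to 8.45 CPM, and with arsenite the 4 to 24 h averages of COL3A1 and COL5A2 go opposite ways in the lines.

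Set directly against each other in the Dmr-PERK line over 2 to 24 h, thapsigargin left more chains lower than higher relative to dimerizer, though not among the fibrillar chains, of which 4 were higher and 4 lower with a median of 0.32. In all, 18 of 42 members were lower and 7 higher with thapsigargin than with dimerizer, against 26.2% and 20.9% of all genes, with a members' median of -0.20 (all genes 0.00). COL4A1 (-1.30 ± 0.05), COL6A3 (-0.98 ± 0.04), COL5A3 (-0.98 ± 0.06), COL6A1 (-0.64 ± 0.03), COL18A1 (-0.62 ± 0.04) and COL1A1 (-0.55 ± 0.02) were lower with thapsigargin. COL11A1 (0.48 ± 0.04) and COL5A2 (0.39 ± 0.04) were higher with it. COL1A2 (0.56 ± 0.17) was higher and COL12A1 (-0.02 ± 0.02) and COL3A1 (0.35 ± 0.18) did not pass the test. With arsenite, 29 members were higher and 11 lower than with dimerizer (42.6% and 37.8% of all genes), with a members' median of 0.84 (all genes 0.12). COL2A1 (4.82 ± 0.36), COL26A1 (3.79 ± 0.12), COL24A1 (3.15 ± 0.16) and COL15A1 (3.10 ± 0.09) were highest above dimerizer, COL2A1 being a gene that the filter kept only through arsenite wells, and COL4A1 (-1.16 ± 0.04) and COL6A3 (-0.998 ± 0.037) farthest below it. With thapsigargin, 33 were lower and 4 higher than with arsenite (43.5% and 37.3% of all genes), with a members' median of -0.98 (all genes -0.14). The counts and medians of both arsenite contrasts include the 4 members that reached the filter's level only through arsenite wells. COL6A1 (-1.81 ± 0.03), COL18A1 (-1.46 ± 0.03) and COL1A1 (-1.23 ± 0.03) were among those lower with thapsigargin than with arsenite, and COL12A1 (0.56 ± 0.02), COL13A1 (0.58 ± 0.03) and COL11A1 (0.61 ± 0.04) were higher. COL4A1 (-0.14 ± 0.05) and COL4A2 (-0.10 ± 0.02) were slightly lower with thapsigargin, and turned to 0.02 and 0.05 with library totals only. The doses were chosen by the study to give like eIF2α phosphorylation and are not otherwise matched.

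The genes that modify, escort and cross-link collagen did not follow the chains as 1 block. Of 15 collagen hydroxylases and glycosyltransferases, dimerizer in Dmr-PERK cells lowered 11 and raised 2 (27.7% and 27.5% of all genes), with PLOD1 (-0.60 ± 0.02) and P3H3 (-0.70 ± 0.03), which hydroxylate lysine and proline, and P4HA2 (-0.74 ± 0.02), a prolyl 4-hydroxylase chain, giving the smallest p. Thapsigargin lowered 8 and raised 5 in Dmr-PERK cells (32.2% and 30.9% of all genes) and lowered 9 and raised 4 in parental cells (35% and 30.1%), and those raised included P4HB, the protein disulfide isomerase shared with that enzyme (1.07 ± 0.02 and 1.23 ± 0.02), and PPIB, a prolyl isomerase (1.08 ± 0.03 and 1.07 ± 0.03). Arsenite raised 7 and lowered 7 in Dmr-PERK cells, near the 44.4% and 39.2% of all genes, and raised 5 and lowered 10 in parental cells (42.7% and 39.4%), with P4HA2 up by 1.24 ± 0.02 and 1.00 ± 0.02.

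Of 12 genes for collagen chaperones and export from the endoplasmic reticulum, thapsigargin raised 10 and lowered 1 in each line, against 30.9% and 32.2% of all genes in the Dmr-PERK line and 30.1% and 35% in the parental line. SEC24D, a coat protein of the vesicles that carry procollagen, rose by 2.45 ± 0.02 in Dmr-PERK and 2.57 ± 0.02 in parental cells, FKBP14, a prolyl isomerase, by 1.60 ± 0.02 and 1.79 ± 0.02, and CTAGE5, a cargo receptor partner, by 1.77 ± 0.03 and 2.02 ± 0.03. Dimerizer raised 5 and lowered 6 of the list (27.5% and 27.7% of all genes), with CTAGE5 up by 1.20 ± 0.03 and CREB3L1, a factor that activates collagen genes in osteoblasts, down by 0.80 ± 0.04. Arsenite raised 3 and lowered 7 in Dmr-PERK cells (44.4% and 39.2% of all genes), and SERPINH1, the collagen chaperone HSP47, rose by 1.54 ± 0.02 in Dmr-PERK and 1.40 ± 0.02 in parental cells. The median of the list was 0.44 with thapsigargin and 0.02 with dimerizer in Dmr-PERK cells, where that of all genes was 0.00 and -0.03.

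Of 14 procollagen proteinases and cross-linking enzymes, dimerizer lowered 11 and raised 1 in Dmr-PERK cells (27.7% and 27.5% of all genes). Thapsigargin lowered 12 in Dmr-PERK (32.2%) and 13 in parental cells (35%) and raised 1 in each (30.9% and 30.1%), and arsenite lowered 11 (39.2%) and 13 (39.4%). The shares of all genes beside these lists are not matched for level. Among genes with a mean of at least 10 CPM, dimerizer lowered 35.5% in Dmr-PERK cells. Thapsigargin lowered 42.9% of them in Dmr-PERK and 42.4% in parental cells, and arsenite 61% and 60.3%. LOXL1, a lysyl oxidase, changed by -0.78 ± 0.04 with dimerizer and by -1.70 ± 0.04 with thapsigargin in Dmr-PERK cells, and BMP1, which trims procollagen ends, by -0.83 ± 0.02 with thapsigargin. In the untreated line comparison PCOLCE, which enhances that trimming (-2.11 ± 0.03), ADAMTS2, which cuts the other end (-1.54 ± 0.04), and TLL1, a relative of BMP1 (-3.65 ± 0.12), were lower in Dmr-PERK cells, and 9 of the 14 were lower and 3 higher (32.2% and 30.3% of all genes). Of 8 collagen receptors, DDR2, a kinase receptor for fibrillar collagen, rose under all agents: by 2.22 ± 0.03 with dimerizer, 2.38 ± 0.03 with thapsigargin and 1.66 ± 0.03 with arsenite in Dmr-PERK cells. Dimerizer lowered 5 receptors and raised 2 (27.7% and 27.5% of all genes), with ITGB1, the integrin β1 chain, at -0.32 ± 0.01. In Dmr-PERK cells thapsigargin lowered 7 receptors and raised 1, DDR2 (32.2% and 30.9% of all genes). Arsenite lowered 4 receptors and raised 3 there (39.2% and 44.4% of all genes). Of 7 tested collagen-binding matrix proteins dimerizer lowered 6 and raised 0 (27.7% and 27.5% of all genes), with LUM, a small proteoglycan (-1.90 ± 0.05), THBS1 (-1.35 ± 0.03) and SPARC (-0.67 ± 0.02) giving the smallest p, and thapsigargin lowered 5 and raised 1 in Dmr-PERK cells (32.2% and 30.9%), with LUM at -3.57 ± 0.07.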

How the data were processed

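RNA from wells of 24-well plates was made into libraries with a directional kit and sequenced on a NovaSeq, per the labels' protocols. Estimated counts (expected counts) and TPM values were deposited by the authors for the same 57665 genes and 120 libraries, with Salmon 0.9.1 and build GRCh38 named in the submitters' processing notes. Of the non-zero estimated counts 51.109% were whole, and all were rounded before testing. In the deposited TPM table the lowest value is 0.063122 and columns sum to 1001150 to 1001825. The sources used here do not say if reads were assigned by strand.

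One model over all 40 groups of 3 wells was fitted with edgeR 4.0.16 (quasi-likelihood test, R 4.3.3) to genes passing its filter at a minimum count of 10, scaled by TMM (factors 0.839 to 1.169). Genes were called at a Benjamini-Hochberg adjusted p under 0.05 over all 26998 genes tested. Log2 fold changes are averages over 4, 8, 16 and 24 h against untreated wells of that line and hour, direct contrasts between agents average 2 to 24 h, and the SE is approximate, the fold change divided by the root of its F. Treatments of a line share their untreated wells. The procedure was tested on simulated counts. The 13 alternatives included limma 3.58.1 on log2(TPM + 1) and log2(TPM + 0.1), DESeq2 1.42.0, other scalings and filters, and leaving out wells. Positions came from GENCODE and start windows from RefSeq (GRCh38.p14).

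Members and lists were chosen with earlier results of these data known. Named in each comparison were mainly the 6 highest and 6 lowest called changes among members with at least 1 CPM in the higher group, 14 fixed chains, and the 3 genes with the smallest p of each related list. Other members and related genes named were chosen after their values were seen.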

Additional observations from a re-analysis of the deposited data

Results flagged for a closer look

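The effect of an agent differed between the lines, by the interaction test of edgeR, for 26 of 42 members with dimerizer, 19 with thapsigargin and 24 with arsenite. Of all genes, 47%, 25.7% and 42.2% were called in the same tests. The members tested include the 4 that reached the filter's level only through arsenite wells. With thapsigargin, COL11A1 fell in Dmr-PERK and rose in parental cells, with a log2 difference between the lines (Dmr-PERK minus parental) of -0.85, and COL5A2 did the reverse, with 1.06.

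With arsenite, COL5A2 (2.85) and COL3A1 (2.1) rose in Dmr-PERK and fell in parental cells. COL1A1 differed by 0.77, with a small rise in Dmr-PERK cells that turned to -0.12 with library totals only. At 24 h the Dmr-PERK wells of COL1A1 with arsenite were all below the untreated ones. COL13A1 differed by -1.07 and COL7A1 by -0.51, with small rises in parental cells that turned to -0.06 and -0.07 with library totals only.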

How the results depend on the processing

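The number of members called in each comparison over 4 to 24 h stayed within 1.5 times its value under the 13 alternatives, except for dimerizer in parental cells, where a fit to only the libraries compared called 1. Without 1 replicate number at a time the counts were 34 to 36 for the line difference, 25 to 27 (dimerizer), 31 to 32 (thapsigargin) and 36 to 37 (arsenite) in Dmr-PERK cells, 0 (dimerizer), 29 to 30 (thapsigargin) and 37 to 38 (arsenite) in parental cells, 23 to 25, 15 to 18 and 21 to 22 for the line differences of these effects in the same order, and 21 to 24, 37 to 40 and 36 to 38 for thapsigargin against dimerizer, arsenite against dimerizer and thapsigargin against arsenite. At 2 h in Dmr-PERK cells, thapsigargin called 17 members and 10 or 9 in limma fits to log2(TPM + 1) and log2(TPM + 0.1), and dimerizer 13, and 8 without replicate 2. The labels do not say that a replicate number pairs wells. Deviations of same-numbered wells from their group means correlated at a mean of 0.0028 (-0.1674 to 0.2382) over all groups. The mean of -0.0014 for other wells is no separate comparison, since deviations within a group sum to 0. Pairing within a line or agent was not tested. A replicate block changed no call of a named gene (member counts with the block 37, 29, 33, 38, 0, 32, 38, 26, 19, 24, 25, 40 and 37, equal to those without it).

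Of 3287 values for named genes, 3124 kept their direction and call, 105 lost and 23 gained a call, and 35 reversed; the cause was not tested. With library totals only, arsenite gave -0.12 for COL1A1 and -0.1 for COL18A1 in Dmr-PERK cells and -0.06 for COL13A1, -0.16 for COL6A1 and -0.07 for COL7A1 in parental cells, arsenite against dimerizer gave -0.02 for COL6A2, and thapsigargin against arsenite gave 0.02 for COL4A1 and 0.05 for COL4A2. With RLE size factors and with DESeq2 alike, COL18A1 was 0.09 under arsenite in parental cells, COL5A1 0.03 and COL7A1 0.05 for arsenite against dimerizer, and COL6A2 -0.08 for thapsigargin against arsenite. In limma on log2(TPM + 1) and log2(TPM + 0.1), in that order, COL17A1 was -0.07 and -0.08 with dimerizer, COL3A1 0.2 and 0.0 with thapsigargin and COL18A1 -0.04 and -0.06 with arsenite in Dmr-PERK cells, COL13A1 was 0.01 and 0.02 with thapsigargin and -0.11 and -0.12 with arsenite in parental cells, and thapsigargin against arsenite gave 0.11 and 0.11 for COL4A1, 0.16 and 0.17 for COL4A2 and -0.07 and -0.07 for COL6A2. With log2(TPM + 1) alone, COL3A1 was 0.01 in that contrast, and the line differences of COL18A1 (thapsigargin) and COL11A1 (arsenite) were 0.25 and 0.05. Leaving out the wells that stood apart was chosen after seeing the data. The F-tests over time were not recomputed. Chains at a few counts per library, such as COL2A1 and COL6A5 untreated, have folds that depth limits.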
